A study of Mus musculus with 3 samples.

Results

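Old tail-tip fibroblasts without p16 were set against old wild-type (WT) cells during reprogramming, at the level of transcripts. Both arrays measured mouse fibroblasts from tail tips of donors aged 22 months, into which 4 reprogramming factors (Oct4, Sox2, Klf4 and c-Myc) had been introduced, with RNA taken on day 8. The old WT cells were of WT genotype and the other cells were p16-/-. The comparison was chosen by the titles of the arrays and takes 2 of the 3 arrays of the series. The third array holds cells of young WT donors aged 2 months, treated in the same way, and its signals are given beside the others. Each group has 1 array, so no difference between groups has a replicate check and none was tested. The design mentions 2 independent experiments with other donors, of which 1 array per group was analysed here. The labels give a repository as the source of the mice. The sources used here do not state the mouse strain, the number of donors per array, the vector of the 4 factors or the deleted part of the gene.

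The p16 protein, encoded by Cdkn2a, binds the cyclin D-dependent kinases Cdk4 and Cdk6 and so keeps the retinoblastoma protein active and E2F target genes off. Its level climbs as cells age and senesce, and the same locus encodes Arf, which stabilises p53. The Ink4a/Arf locus is known as a barrier to reprogramming by defined factors, and fibroblasts that enter reprogramming are known to turn down mesenchymal and contractile genes early on.

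Processed signal is the scanner's background-subtracted brightness of a probe, and signals are listed in the order young WT, old WT and old p16-/-. A ratio is the log2 signal of old p16-/- minus that of old WT, after each array's 75th percentile was subtracted, so that 1 stands for 2-fold higher and -1 for 2-fold lower on old p16-/-. Counted genes were well above background on at least 1 old array and reached a signal of 1000 on the brighter of the old arrays. There were 8836 such genes. At a limit of 2-fold, 236 (2.67%) stood higher on old p16-/- and 372 (4.21%) lower, 608 (6.88%) in all. The median ratio was 0.05, with quartiles of -0.16 and 0.22. Past 4-fold, 67 genes were higher and 98 lower. The share of genes at least 2-fold apart was 9.36% at signals of 1000 to 3000 and 4.30% above 100000. The error known for these values is that between spots of one array. For 177 bright probes spotted 10 times, the SD of a ratio between single spots had a median of 0.0683 and a 95th percentile of 0.114. These 10-spot probes represented 166 counted genes, of which 4 were at least 2-fold higher and 10 lower. Where a gene had a second counted probe, 67 of 71 genes at least 2-fold apart kept their sign by it, and 53 were at least 2-fold apart by both.

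Cdkn2a had signals of 62705, 65464 and 28065, a ratio of -1.23, and -1.38 by a second probe. Whether either probe lies in the deleted part is not known, so its signal does not check the genotype. Cdkn2b, the neighbour that encodes the related kinase inhibitor p15, had 15158, 17528 and 7306 and a ratio of -1.27 (-1.56 by a second probe). On both genes the WT arrays lay close together and the p16-/- array below them. Among the 16 nearest genes around Cdkn2a, 6 were counted and 2 were at least 2-fold apart, beside 6.88% of all counted genes. Mtap, a methionine salvage enzyme gene on the other side of Cdkn2a, had a ratio of 0.71. Elavl2, which encodes a neuronal RNA-binding protein, had 180, 26.0 and 1160 and was counted through old p16-/- alone. It was not well above background on old WT and was higher than there by at least 32.4-fold (a bound of 1.37 on the log2 scale by a second probe). Further out, Tusc1 was at 0.79, Zfp352 at 0.07 and Plaa at -0.02. The neighbours therefore did not lie on one side. The other counted kinase inhibitors were within 2-fold, with Cdkn1a (p21) at 0.11, Cdkn1b (p27) at -0.19, Cdkn2c (p18) at 0.59 and Cdkn2d (p19) at 0.40. Cdkn1c (p57), which did not reach a signal of 1000, had 459.7, 324 and 734 and a ratio of 1.18. Of the introduced factors, Myc had signals of 2456, 2387 and 1172 and a ratio of -1.03. Klf4 was at -0.35. Sox2 and Pou5f1, the Oct4 gene, did not reach a signal of 1000. It is not known whether these probes read the introduced copies.

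Most genes of the antiviral interferon programme were lower on the p16-/- array than on either WT array. In this programme, secreted type I interferon acts through its receptor and a complex that holds Stat2 and Irf9, which binds the interferon-stimulated response element (ISRE) in front of the responding genes. The effectors were read over 3 lists together: the Isg15 pathway, the Ifit, Ifi27 and Ifi44 effectors and the oligoadenylate synthetases. They held 29 counted genes with a median ratio of -2.37, of which 23 were at least 2-fold lower and 0 higher, beside 4.21% lower among all counted genes.

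Isg15, a ubiquitin-like protein that is conjugated to others during infection, had signals of 12802, 59455 and 4766, which is a 12.5-fold difference between the old arrays. Its second probe gave -4.03. Usp18, the protease that removes Isg15 and damps the receptor, had 3064, 9643 and 439.6 and a ratio of -4.46. Uba7, the activating enzyme of the same pathway, was at -2.37. In these genes the old WT array was the brightest of the 3 and the p16-/- array the dimmest. By contrast, the conjugating enzyme gene Ube2l6 was at -0.48 and the ligase gene Trim25 at -0.06, so 3 of 5 members were at least 2-fold lower.

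Among the Ifit, Ifi27 and Ifi44 effectors, 16 of 20 were at least 2-fold lower. Ifit1, which binds foreign RNA lacking a host cap, had 1372, 3689 and 288. Its relative Ifit3 had 2156, 5859.9 and 349, a ratio of -4.07. Ifi44 had 1028, 4606 and 329.8. Ifi27l2a had 5377, 10047 and 391 and Ifi27l2b 1449, 1904 and 88.4. All 5 were lower by over 8-fold on old p16-/- than on old WT, and all were dimmest on old p16-/-. Bst2, which encodes the tetherin that holds budding virus at the membrane, had 12812, 33932 and 3957. Ifitm3, which blocks viral entry, was read by 10 spots on each array and had a ratio of -1.08 (SD 0.0718 between spots). The members within 2-fold were Ifi35 at -0.82, Ly6e at -0.45, Tor3a at -0.37 (0.55 by a second probe) and Ifitm2 at 0.01.

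The oligoadenylate synthetases make the messenger that switches on the antiviral nuclease RNase L. All 4 counted members of the list were at least 2-fold lower. Oasl2 had 1506, 5238 and 250.4, Oas2 1956, 4105 and 603, Oas1a 4272, 9076 and 1753 and Oasl1 1774, 1780.4 and 261. Oasl1 was alike on both WT arrays, whereas the other 3 were brightest on old WT. Interferon-inducible GTPases, which attack the vacuoles of intracellular microbes, gave 6 of 7 genes at least 2-fold lower, with a median of -2.35. Irgm2 had 2109, 5315 and 559 and Gbp3 1862, 5038 and 667. Igtp, read by 10 spots on old WT and 9 on old p16-/-, was at -2.27 (SD 0.0766). Gvin1 was at -2.78, Irgm1 at -2.35, Gbp2 at -1.39 and Tgtp2 at -0.98. Members of these families share sequence, and whether a probe also reads a relative was not checked.

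**Figure D1:**
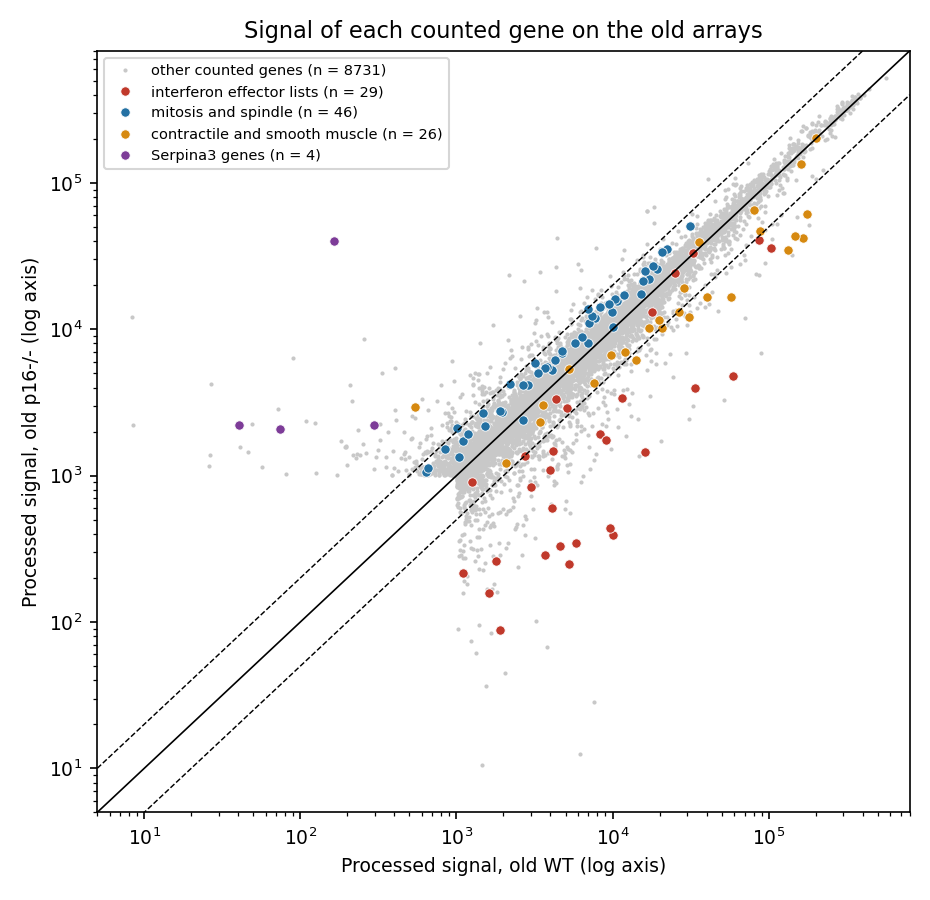
Processed signal of each of the 8836 counted genes on old WT (x axis) and old p16-/- (y axis), both log axes, with 1 point per gene, the solid line at equal signal and the dashed lines at 2-fold before scaling. The 29 interferon effector genes (red) lie on or below the lower dashed line except for 6, 45 of the 46 mitosis genes (blue) have a ratio above 0 and 22 of the 26 contractile genes (orange) one below 0, and the 4 Serpina3 genes of the protease inhibitor list (purple) stand far to the upper left.

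The upstream parts of the pathway differed less evenly. Irf7, the factor that amplifies interferon production, had 335, 1018 and 89.7 and a ratio of -3.51. Stat2 had 4951, 8522 and 2254 and Irf9 5282, 8907 and 3033, ratios of -1.92 and -1.56. These were the 3 of 16 receptor, Stat and Irf genes that were at least 2-fold lower. The remaining members included Irf3 at 0.05, Jak1 at -0.19, Stat3 at -0.28 and Socs3 at 0.16, and the list's median was -0.15. Among sensors of foreign nucleic acid, 4 of 15 were at least 2-fold lower. Ifih1, which encodes the long double-stranded RNA sensor MDA5, had 1569, 3196 and 372. Ddx58, which encodes RIG-I, had 5930.0, 12664 and 3080.5 (ratio -2.04, and -1.87 by a second probe). Zbp1, a sensor of Z-form nucleic acid, was at -1.81 (-2.52 by a second probe) and the RNA-editing Adar at -1.07. The DNA-sensing branch was within 2-fold, with Cgas at 0.34 and its adaptor Sting1 at -0.51, as were the RNA adaptor Mavs at -0.06 and Trex1 at -0.70. Antigen presentation genes had a median of -0.07, and 1 of 13 was at least 2-fold lower, the immunoproteasome subunit Psmb8 at -1.74. The class I light chain gene B2m was at -0.39.

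The Ifi200 (PYHIN) family of nucleic acid binders went both ways. Ifi211 was bright on both WT arrays and not well above background on old p16-/- (4676, 7644 and 28.4), which is lower by at least 163-fold. Ifi202b was not well above background on either WT array and bright on old p16-/- (13.2, 8.38 and 12176), higher by at least 340.4-fold, with a bound of 8.40 by a second probe. Ifi214 had 11.4, 8.52 and 2210.0, likewise seen on old p16-/- alone. Ifi207 was at -1.96 and Ifi204 at -0.75. Probes of the rest disagreed: Ifi209 was at 1.62, with 2.35 and -1.52 by dimmer probes, and Ifi208 at -0.10, with a bound of -3.45 by a dimmer probe.

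Macrophages and other leukocytes can be present in primary fibroblast cultures, and their markers also differed between the old arrays. Of 26 macrophage and leukocyte genes on the array, 21 were well above background on each WT array and 11 on old p16-/-. Summed over the list, signals were 71338, 32745 and 19771 in the usual order. Itgam alone had 19992, 19071 and 14934, so this gene made up most of the sum on both old arrays. Lyz1, a lysozyme of myeloid cells, had 14297, 3222 and 101. The cathepsin gene Ctss had 6500.0, 1455 and 10.6, the last not well above background. Other members reached 1000 and stayed within 2-fold: Csf1r at -0.74, Cd14 at -0.57 and Itgam at -0.36. For Csf1r a second probe gave 0.26. Lyz1 and Ctss were brightest on young WT, and Isg15, Usp18 and Ifit3 on old WT. Fewer such cells and less RNA per cell cannot be told apart, and the part of these cells in the interferon values was not tested.

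Promoters were compared with these values because ISRE-bound genes share a short sequence. Promoters here are RefSeq windows of the GRCm38.p6 build from 250 bases before to 50 after the start of a gene, the first listed start where a gene has several, and 7131 of the 8836 counted genes had one. The ISRE core was searched as GAAA, any 2 bases and GAAA again, on both strands, where matches may overlap each other. It occurred in 3.49% of all 27025 promoters and in 2.92% of those of counted genes. It occurred in 14 of 25 promoters (56.0%) of the interferon effector and GTPase lists. Stretches from 6 of these genes are shown to place the motif in genes with some of the largest differences, with the matched letters in capitals and each written 5′ to 3′ on the strand of the gene (a match to the other strand reads TTTC in place of GAAA).
Isg15: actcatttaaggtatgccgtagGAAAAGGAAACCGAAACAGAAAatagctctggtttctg
Ifit3: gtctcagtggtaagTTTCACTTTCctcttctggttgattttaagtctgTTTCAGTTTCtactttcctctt
Ifit1: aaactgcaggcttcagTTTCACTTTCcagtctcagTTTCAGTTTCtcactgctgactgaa
Bst2: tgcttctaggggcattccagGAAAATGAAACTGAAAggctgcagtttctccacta
Oas1a: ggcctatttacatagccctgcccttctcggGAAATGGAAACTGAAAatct
Gbp3: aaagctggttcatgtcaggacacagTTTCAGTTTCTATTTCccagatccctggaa
The stretches lie at chr4:156200859-156200918 (minus strand), chr19:34583359-34583428 (plus strand), chr19:34640769-34640828 (plus strand), chr8:71537568-71537622 (minus strand), chr5:120907526-120907575 (minus strand) and chr3:142559974-142560028 (plus strand), in that order, and all lie upstream of the start of the gene. In Isg15, 3 overlapping matches form 1 run, and Ifit3 and Ifit1 carry 2 separate matches each.

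Over all counted genes, those of the lists included, the ISRE core was found in 29 of 281 promoters (10.3%) of genes at least 2-fold lower and in 20 of 77 (26.0%) of genes at least 4-fold lower. Among genes at least 2-fold higher it was found in 6 of 180 (3.33%), close to the 2.92% of all counted genes. Seen from the motif, 13.9% of the 208 counted genes that carry it were at least 2-fold lower, beside 3.64% of the genes without it. Of the 29, 12 stood in none of the interferon lists. They included the antiviral Trim genes Trim12a (-7.05, a bound), Trim34a (-3.50, and a bound of -0.37 by a dim probe) and Trim21 (-1.88). Apol9b, an apolipoprotein L gene, had 11294, 30833 and 2457, and its neighbour in name Apol9a was at -3.47. The others were Ctss, Cxcl10 (-2.73), Inhbb (-2.37), Phf11a (-1.88), Cxcl14 (-1.74), Ppox (-1.15) and Lgals9 (-1.13). A match is a description of the letters and no measure of binding.

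**Figure D2:**
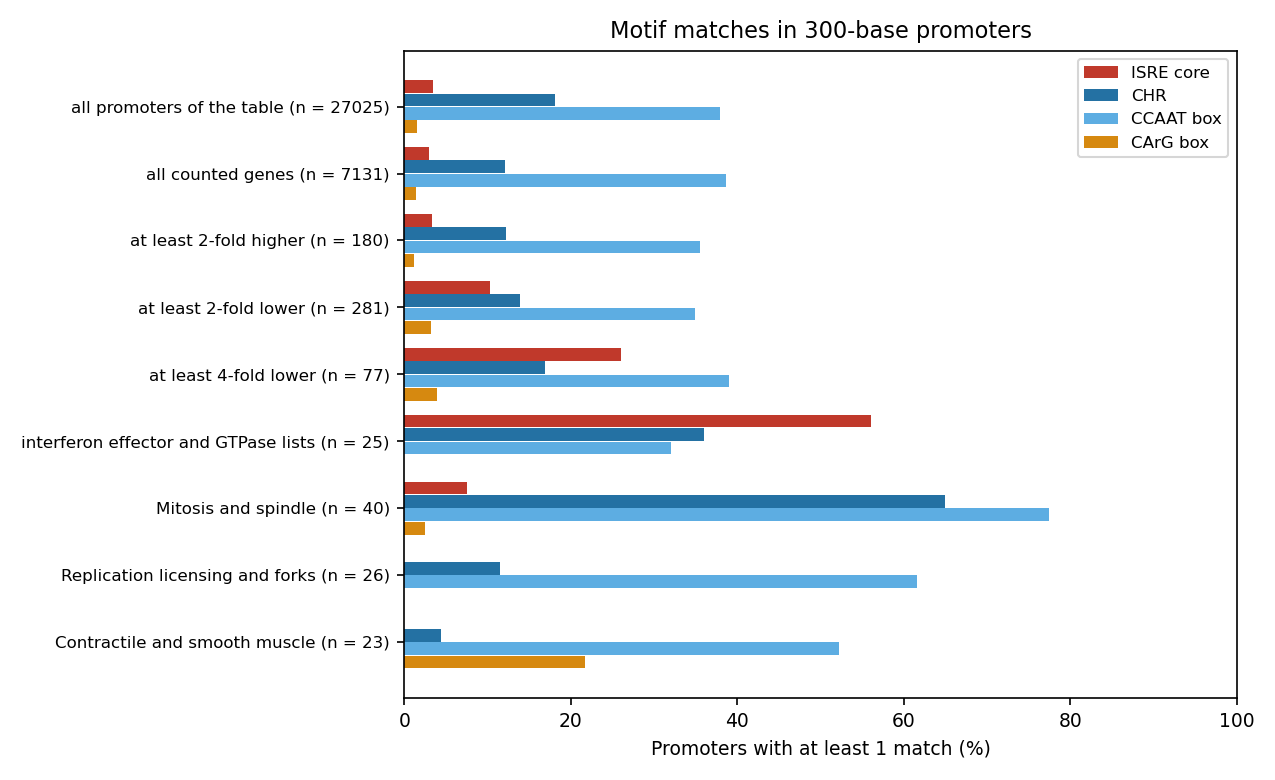
Percentage of 300-base promoters with at least 1 match to each of 4 motifs (bars, x axis from 0 to 100%), for all promoters, for counted genes by size of difference and for gene lists (n = promoters). The ISRE core (red) reaches 56.0% in the interferon effector and GTPase lists and 26.0% among genes at least 4-fold lower, against 2.92% of counted genes, and the CHR (dark blue) reaches 65.0% in the mitosis list.

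Genes of the cell cycle were higher on old p16-/- by a small and even amount. Mitosis and spindle genes had a median ratio of 0.57 over 46 counted genes, and 45 lay above 0. Bub1b, a kinase of the spindle checkpoint, was the 1 that was at least 2-fold higher, with 1408, 1013 and 2118. Ccnb2, a mitotic cyclin, had 10102, 6985 and 13764. Cdc20, the activator of the anaphase-promoting complex, had 30397, 22410.0 and 35643. The survivin gene Birc5 had 41931, 31512 and 50754, a ratio of 0.68, with 0.93 and 0.82 by further probes. On all 4 genes young WT lay between old WT and old p16-/-. The proliferation marker Mki67 was at 0.64, the master factor of the G2/M programme Foxm1 at 0.47, Cdk1 at 0.58 and Ube2c at 0.77. Cenpk was the 1 member below 0, at -0.16.

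The 34 counted replication genes gave 0.57 as their median, 31 lay above 0 and 0 were at least 2-fold apart. The sliding clamp Pcna had 34121, 27534 and 42745 and the helicase subunit Mcm6 54696, 42209 and 60956. Rrm2, the ribonucleotide reductase subunit made in S phase, had 56886, 45520.3 and 75739 and a ratio of 0.73. DNA repair and Fanconi genes had a median of 0.49 over 19, histone genes 0.42 over 15 and nucleotide synthesis genes 0.33 over 15. None of these were at least 2-fold apart. The transcripts of Cdk4, whose protein p16 binds, and of the D cyclins did not lie on one side. Cdk4 was at 0.10, Ccnd1 at -0.40, Ccnd2 at -0.19 and Ccnd3 at 0.09. The list of G1/S cyclins, E2F and pocket proteins had a median of 0.18 over 18. Over the cell cycle, repair and histone lists together, with the kinase inhibitors left out, 133 of 147 counted genes lay above 0, where 5050 of all 8836 did.

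The cell cycle genes homology region (CHR), TTTGAA, is the element through which DREAM and MuvB complexes hold G2/M genes down in resting cells. Searched on both strands, it occurred in 26 of 40 mitosis promoters (65.0%), beside 858 of 7131 promoters of counted genes, and in 3 of 26 replication promoters. The CCAAT box (CCAAT), bound by NF-Y, occurred in 31 of 40 (77.5%), beside 38.7% of counted genes. A stretch of 4 such promoters is shown with the CHR in capitals.
Ccnb2: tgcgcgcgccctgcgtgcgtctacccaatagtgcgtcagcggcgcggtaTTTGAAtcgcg
Cdc20: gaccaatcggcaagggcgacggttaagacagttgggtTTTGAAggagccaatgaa
Cdk1: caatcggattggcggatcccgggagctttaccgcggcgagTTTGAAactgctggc
Ube2c: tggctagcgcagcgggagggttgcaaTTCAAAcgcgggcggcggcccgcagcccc
They lie at chr9:70421540-70421599 (minus strand), chr4:118437344-118437398 (minus strand), chr10:69352913-69352967 (minus strand) and chr2:164769874-164769928 (plus strand), and in Ube2c the match is on the other strand. Over all counted genes, the median ratio was 0.084 for the 858 with a CHR and 0.048 for the 6273 without, and 2.56% and 2.52% were at least 2-fold higher, a limit that only 1 of the 46 mitosis genes passed.

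Of p53 pathway genes, 1 of 25 was at least 2-fold apart, beside 6.88% of all counted genes. Perp, a p53 target that is also a desmosome protein, had 41489, 40631 and 106515. The ubiquitin ligase gene Mdm2 was at 0.02, Phlda3 at -0.14 and Aen at 0.32, and the list's median was 0.17. Lists of general upkeep moved little: ribosomal protein genes had a median of 0.15 over 36, oxidative phosphorylation genes 0.15 over 40, proteasome genes 0.09 over 30, chromatin genes 0.18 over 42 and unfolded protein response genes 0.03 over 22. None of these lists held a gene at least 2-fold apart. DNA methylation genes gave 0 of 10, with Uhrf1, the cofactor of Dnmt1 during replication, the largest at 0.85. Among glycolysis genes the neuronal enolase Eno2 had 795, 870.4 and 2162 and the aldolase Aldoc was at 1.06, while Gapdh was at -0.01 and Ldha at 0.15.

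**Figure D3:**
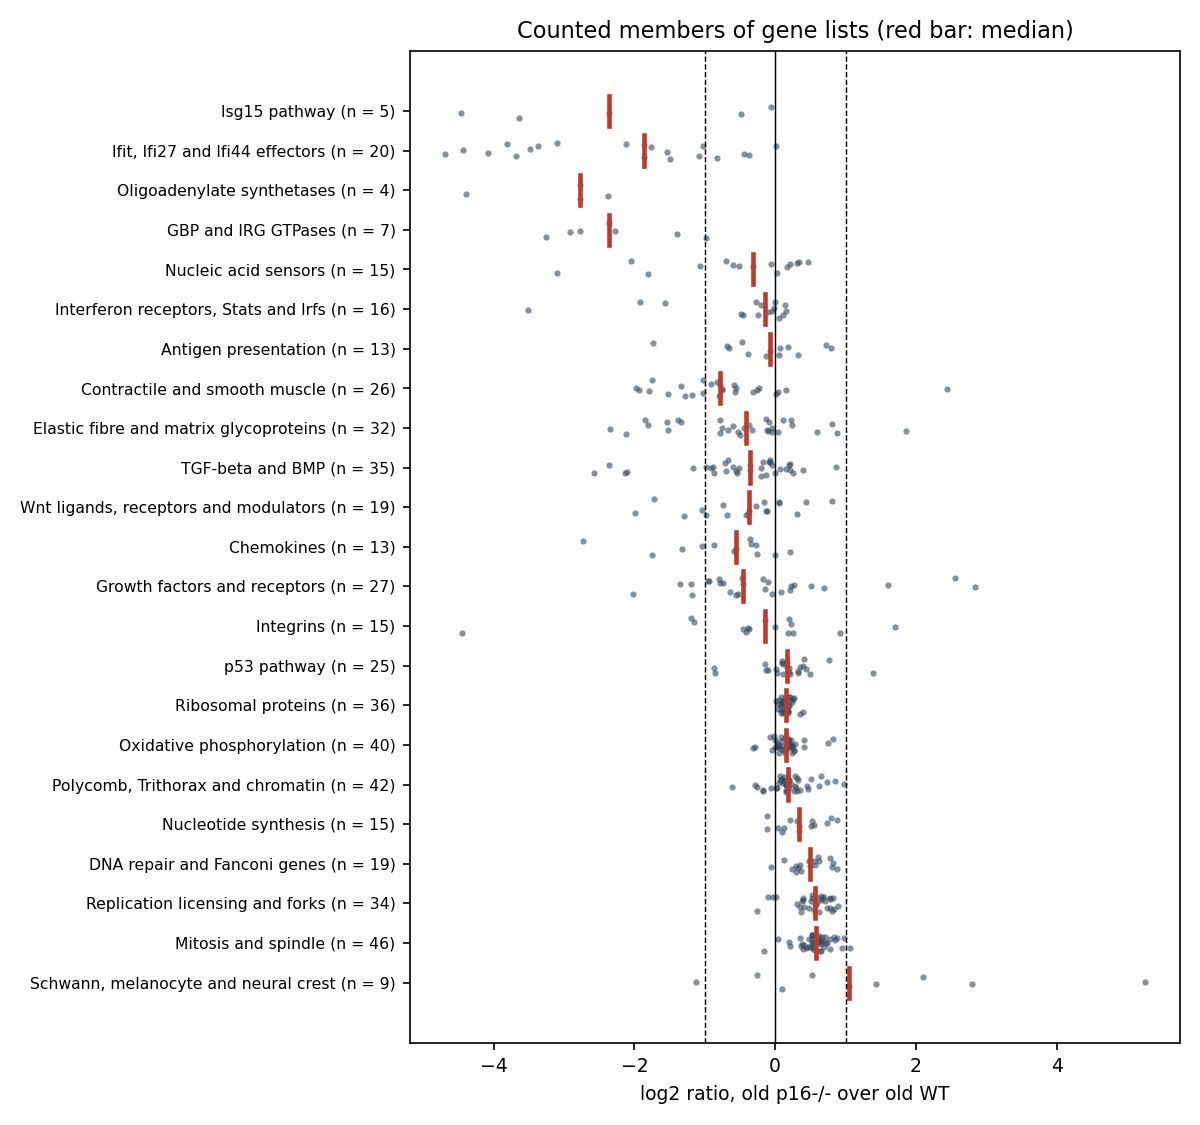
log2 ratio of old p16-/- over old WT (x axis) for the counted members of gene lists (y axis, n = counted members), with 1 grey point per gene and a red bar at each median. The effector lists at the top have medians from -2.77 to -1.86 with widely spread members, whereas the mitosis and replication lists have a median of 0.57 each with members within 1.06 of 0.

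Contractile and smooth muscle genes were lower on old p16-/-, with a median of -0.79 over 26 counted genes. At least 2-fold lower were 10 of them and 1 was higher, and 4 lay above 0. Acta2, the smooth muscle actin that marks myofibroblasts, had 148230.0, 165017 and 42072, a ratio of -1.98 with an SD of 0.0796 over 10 spots. Myl9, a regulatory light chain of myosin, had 104851, 132705 and 34798. The calponin gene Cnn1 had 42791, 57018 and 16578 and the transgelin gene Tagln 128345, 146254 and 43484. On these 4 genes both WT arrays lay within 1.5-fold of each other and the p16-/- array well below. Csrp1 was at -1.52, Actg2 at -1.34, Tpm2 at -1.28, Cald1 at -1.18, Tpm1 at -1.03 (-1.94 and -1.88 by further probes) and Fhl2 at -1.03. Synm, an intermediate filament gene, was the exception at 2.44, and 4 further probes also lay above 1. Bright members within 2-fold included the crosslinker Flna at -0.25, Zyx at -0.92 and Myl6 at 0.01. Of the factors that drive these genes, Srf was at -0.23, Mrtfa at -0.75 and Mrtfb at 0.03. Of pericyte genes, 0 of 5 were at least 2-fold apart, beside 6.88% of all counted genes, with Cspg4 at 0.60 and Pdgfrb at -0.96.

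The CArG box, the site of Srf, occurred in 5 of 23 contractile promoters (21.7%), beside 1.35% of counted genes and 1.57% of all promoters, on both strands. The 5 genes were Cnn2 (-0.79), Fhl2, Myl9, Srf and Vcl (-0.78). Stretches of 3 are shown with the box in capitals.
Myl9: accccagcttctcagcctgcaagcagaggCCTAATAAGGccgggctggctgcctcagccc
Vcl: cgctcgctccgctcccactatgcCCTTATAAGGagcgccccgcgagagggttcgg
Fhl2: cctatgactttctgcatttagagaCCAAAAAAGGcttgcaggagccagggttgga
They lie at chr2:156775274-156775333 (plus strand), chr14:20929148-20929202 (plus strand) and chr1:43196827-43196881 (minus strand). Among counted genes with a CArG box, 9 of 96 (9.38%) were at least 2-fold lower, beside 3.87% without it.

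**Figure D4:**
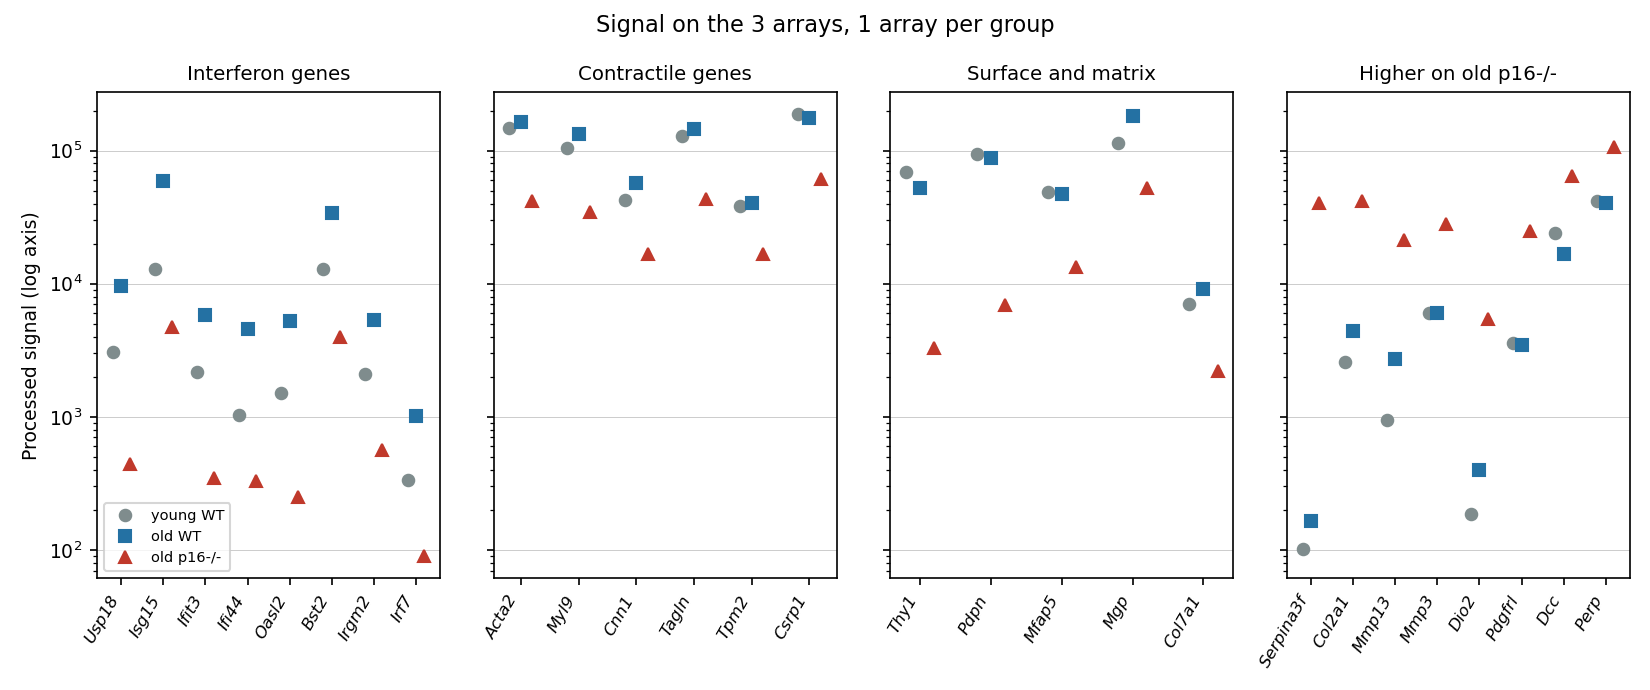
Processed signal (log axis) of chosen genes on the 3 arrays (grey circles for young WT, blue squares for old WT and red triangles for old p16-/-), 1 array per group and so no error bars. The interferon genes spread over all 3 arrays with old WT on top, whereas the contractile, surface and matrix genes have both WT arrays together and old p16-/- below, and the genes at the right have old p16-/- above both.

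Surface markers of fibroblasts separated into 3 groups. Thy1, an anchored glycoprotein used to sort fibroblasts and known to be lost early in reprogramming, had 69467, 52045 and 3287, a 15.9-fold difference. Pdpn, the mucin-like podoplanin, had 94401, 88662 and 6874, with -3.08 by a second probe. Cd248 was at -1.32. Higher on old p16-/- were the receptor gene Pdgfra at 1.60 (SD 0.0634 over 10 spots), the protease gene Fap with 449.8, 587 and 1668 and the ectonucleotidase gene Nt5e at 1.29. The bright markers Vim (-0.03), S100a4 (-0.14), Ly6a (-0.04) and Ly6c1 (-0.07) were near 0. On each of the 3 arrays, 23 of 24 markers were well above background, and 19 of the 24 were counted.

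The matrix lists together had 159 counted genes, of which 17 stood higher by 2-fold or more, 28 stood lower and 101 lay below 0 (median -0.17). Among all counted genes, 2.67% stood higher and 4.21% lower. Of 20 counted collagen genes, 4 stood higher by 2-fold or more and 3 lower (median -0.07). The main fibrillar collagens were near 0, with Col1a2 at -0.05, Col3a1 at 0.11 and Col1a1 at -0.30. Col2a1, the collagen of cartilage, had 2580.2, 4376 and 42066. Its partner in cartilage fibrils Col11a1 had 1795, 2632 and 7586, and Col10a1, of hypertrophic cartilage, 246, 389.8 and 1475. These 3 were brightest on old p16-/-. Col7a1, the anchoring fibril collagen beneath epidermis, had 7057, 9046 and 2190.0. Col5a1, which nucleates fibrils, had 34368, 57526 and 26656, and the other chains Col5a2 and Col5a3 were at 0.89 and -0.97. Basement membrane collagens Col4a1 and Col4a2, transcribed from 1 shared promoter, were at -0.81 and -0.80, and Col4a6 at 1.16 (-0.03 by a dimmer probe). Among laminins, Lama2 had 4773, 3081 and 588, with -2.18 by a second probe, and Lama5 was at 1.00. Genes of collagen folding, processing and crosslinking gave 3 of 22 at least 2-fold lower, the crosslinking oxidases Loxl1 at -1.65 and Loxl2 at -1.30 and the procollagen protease Adamts14 at -1.16, while Lox itself was at -0.33.

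Of 32 counted genes for elastic fibres and matrix glycoproteins, 8 were lower by 2-fold or more and 1 higher, around a median of -0.41. Mfap5, a microfibril component, had 49077, 47493 and 13255 and its relative Mfap2 1002, 1324 and 262, ratios of -1.85 and -2.34 (-1.31 for Mfap2 by a second probe). Mgp, an inhibitor of calcification, had 114144, 180400.0 and 51934. Tnc, a matrix protein of wounds, was at -1.53 and Ltbp2 at -1.37. Thbs4 had 11696, 1346 and 311, so that most of its spread lay between the WT arrays. Comp had 2414, 6288 and 2183, alike on young WT and old p16-/-. Fbn2, a fibrillin of developing tissue, was higher at 1.86 and 1.95 by a second probe, whereas the adult fibrillin Fbn1 was at -0.67. Fn1 was at -0.13 and Sparc at -0.05, although a second probe of Sparc gave -1.14. Of proteoglycans, Omd of bone matrix was at 2.30 and Cd44, the hyaluronan receptor, at -0.72. Of integrins, Itga4 was not well above background on old p16-/- (1357, 1339 and 61.5, and a bound of -1.46 by a second probe), Itga5, the fibronectin receptor subunit, was at -1.20 and Itgb7 at 1.70. Ddr2, a collagen receptor kinase, had 20995, 20666 and 9298.

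**Figure D5:**
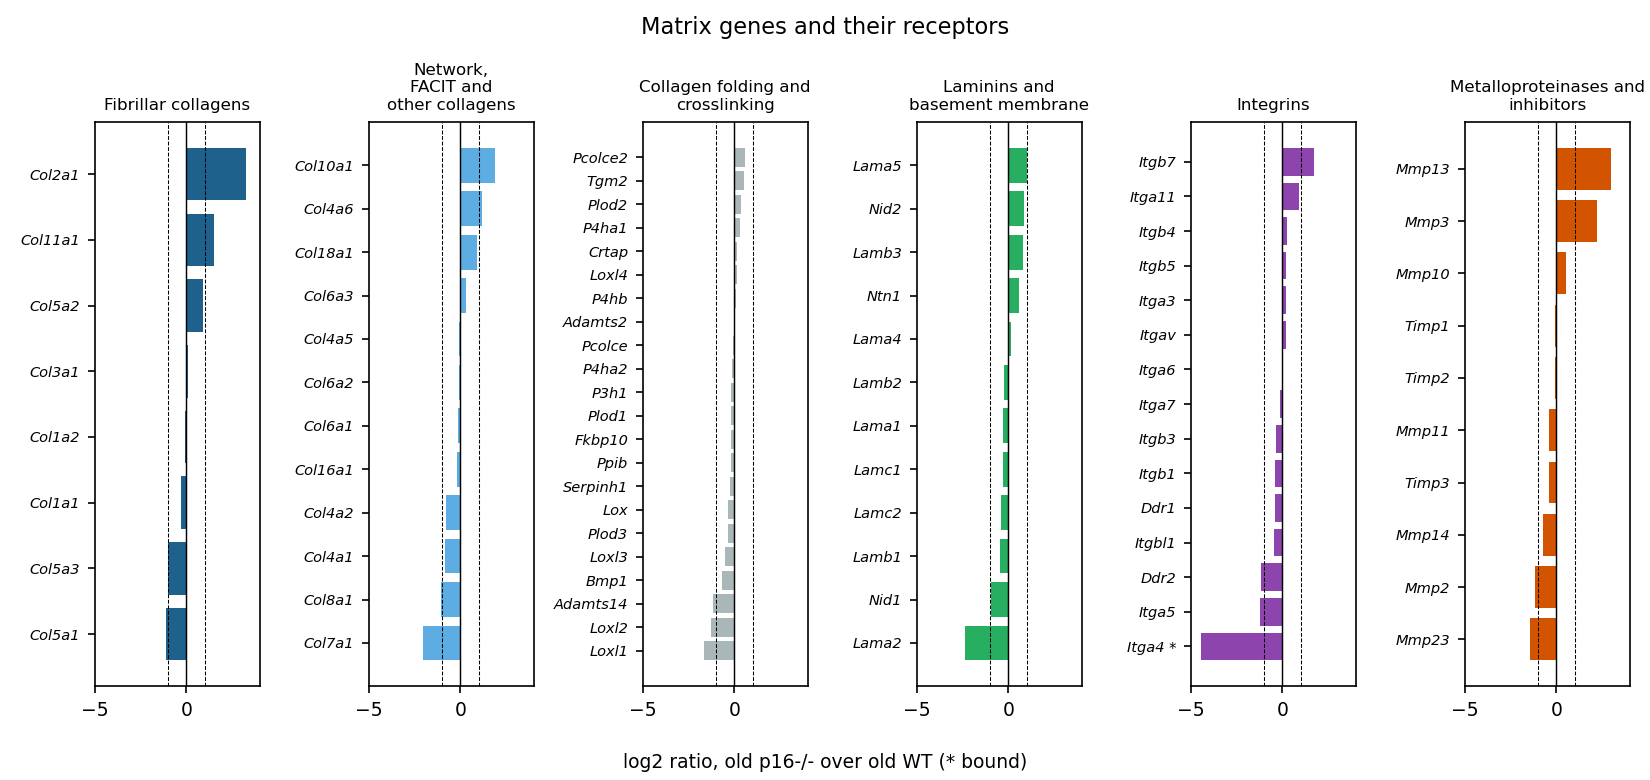
log2 ratio of old p16-/- over old WT for every counted gene of 6 matrix lists (bars, x axis), sorted within a list, with dashed lines at 2-fold and an asterisk where the ratio is a bound. Col2a1 at 3.26 and Mmp13 at 2.96 extend farthest to the right, Itga4 at -4.45 farthest to the left, and 19 of the 22 folding and crosslinking genes lie between the dashed lines.

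Proteases and their inhibitors gave some of the largest differences. Mmp13, a collagenase, had 944, 2724 and 21302. Mmp3, stromelysin, had 6022, 6033 and 27858, alike on both WT arrays. Mmp2 was at -1.15 with 3751, 10794 and 4869, and Mmp14, which activates it, at -0.72. The inhibitors Timp1, Timp2 and Timp3 were at -0.08, -0.10 and -0.39. Of Adamts and Adam genes, 6 of 15 counted were at least 2-fold lower, beside 4.21% of all counted genes, and Adam23 was higher at 1.91. Among the lower ones were Adamtsl1 at -2.60 (a bound of -0.51 by a dim probe), Adam33 at -2.06 and Adamts14, which the folding list also holds. Serping1, the complement C1 inhibitor, had 5779, 7126 and 1104, and Serpinf1, the anti-angiogenic PEDF, 79240.1, 101735 and 35383. The leukocyte protease inhibitor Slpi was higher at 1.38. Counted genes of the Serpina3 family of acute-phase inhibitors were dim on both WT arrays, with signals below 300, and bright on old p16-/-. Serpina3f had 102, 165 and 40129.5, and its second probe, above background on old p16-/- alone, read 15.1 on old WT and 1623 on old p16-/-. Serpina3n had 70.3, 73.8 and 2080.3, Serpina3i 37.4, 40.3 and 2228 (1.16 by a second probe), Serpina3b 217, 215 and 3233 and Serpina3h 298, 295 and 2229. These copies lie side by side and are alike in sequence, so the values may not be independent.

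In the TGF-beta, Wnt and chemokine lists, counted genes at least 2-fold apart were all lower on old p16-/-. At a signal limit of 500 in place of 1000, the Wnt list held 1 higher and 7 lower and the chemokines 1 higher and 4 lower. Of TGF-beta and BMP genes, 5 of 35 were at least 2-fold lower and 0 higher, with a median of -0.35. Tgfb3, a ligand, had 19517, 29714 and 6917, a ratio of -2.11 with an SD of 0.0579 over 10 spots. The BMP antagonist gene Grem1 was at -0.36. Inhbb, an activin subunit, had 14238, 13099 and 2548, and the sister subunit Inhba was at -0.99. The receptor gene Acvrl1 was at -1.17. Ankrd1, a target of YAP, had 3217, 4016 and 636, but the targets Ccn1 and Ccn2 were at -0.60 and -0.52. Of Wnt genes, 4 of 19 were lower by 2-fold or more. Wnt5a, a non-canonical ligand, had 2593, 4429 and 1114, and its receptor gene Ror2 4097, 3578 and 1092. Dkk2, a Wnt antagonist, was at -1.30 and Wnt9a at -1.04, while the frizzled receptor gene Fzd1 was at -0.98.

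Growth factors and receptors had 3 of 27 at least 2-fold higher and 4 lower, beside 2.67% and 4.21% of all counted genes. Of the higher ones, Pdgfra and Fgf10 were counted through old p16-/- alone. Pdgfrl, a soluble relative of the PDGF receptors, had 3614, 3434 and 24739.6. Fgf10, a ligand made by mesenchyme, had 57.8, 171 and 1014, a ratio of 2.56 with an SD of 0.147 over 10 spots. Gas6, the ligand of Axl, had 71752, 104978 and 41138 and Axl was at -0.46. Fgf7, keratinocyte growth factor, had 5493, 13166 and 5749, alike on young WT and old p16-/-. Pdgfd was at -2.02. In the insulin-like growth factor system, the binding protein genes parted: Igfbp2 was at -2.39 (-2.28 by a second probe), Igfbp4 at -2.29, Igfbp5 at -1.60 and Igfbp6 at -0.83, whereas Igfbp3 was at 1.08. Igfbp5 had 1252, 11658 and 3852, and so young WT was the lowest of the 3 arrays for this gene.

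Of chemokines, 4 of 13 were at least 2-fold lower and 0 higher (median -0.56). Cxcl10, an interferon-induced attractant of T cells, had 2661, 1893 and 285. Cxcl14 had 63781, 94762 and 28386, Ccl5 was at -1.33 and Cxcl5 at -1.04. The monocyte attractants Ccl2 and Ccl7 were at -0.56 and -0.58. Among cytokines, Il11 had 9117, 10709 and 2859 and the IL-33 receptor gene Il1rl1 36901, 41210.3 and 14984. Csf1, the growth factor of macrophages, had 55803, 70963 and 29669, a ratio of -1.26 with an SD of 0.0320 over spots, and 2 further probes of it gave -0.70 and -0.68. The osteoprotegerin gene Tnfrsf11b was higher at 1.09. Of immediate early genes, 0 of 12 were at least 2-fold apart, beside 6.88% of all counted genes, with Jun at -0.70 and Egr1 at 0.24. In the complement and coagulation list, C2 was at -1.39, Clu at 1.12 and tissue factor, F3, at -1.27. F13a1 had 52, 71.5 and 2864, and its second probe was not well above background.

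Genes of guidance, retinoid and thyroid hormone signalling included bright single members. Dcc, a netrin receptor, had 23987, 16726 and 64291, but 2 further probes of it were not well above background on the old arrays. Ephb6 was at 2.61, and 0.38 by a second, dim probe. Slit2 and Slit3 were at -1.05 and -1.41, and their receptor gene Robo1 at -1.30. Cyp26b1, which degrades retinoic acid, had 5892, 3247 and 11509. Aldh1a3, which makes it, had 3109.7, 1110.3 and 191, and the reductase gene Dhrs3 was at -1.78. Dio2, which activates thyroid hormone, had 185, 401 and 5415. Dio3, which inactivates it, had 1129.9, 5299 and 2271. The activating enzyme was thus brightest on old p16-/- and the inactivating one on old WT. Dio3 also lies in an imprinted cluster with Meg3 (15114, 21786 and 5897, ratio -1.89, and -2.23 and -2.04 by further probes) and Mirg (-1.80). In other imprinted genes, Plagl1 was at 1.83, with 1 further probe at 1.84 and another at -0.93, and Grb10 was at -1.40. Igf2r was at 0.54.

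Among transcription factors of position and lineage other than Hox genes, 2 of 27 were at least 2-fold higher and 3 lower, 18.5% in all, beside 6.88% of all counted genes. Of Hox genes, 2 of 16 were at least 2-fold lower, the posterior Hoxb13 (23776, 31517 and 13188) and Hoxc13 (2179.8, 2523 and 1081), with Hoxb9 at -0.17 and Hoxa7 at 0.43. Pax1, a factor of the axial skeleton, had 1395, 2636 and 287 and a ratio of -3.20 (SD 0.0414 over spots). Zic1 had 3754, 3777 and 68, whereas its second probe gave -0.91. Irx1 was at -1.87, Tbx1 at 1.41 and Foxd1 at 1.16. In the list of early reprogramming and pluripotency genes 10 of 40 on the array were counted. Tfcp2l1, a factor of naive pluripotent cells, had 639.7, 544 and 2469, with 1.58 by a second probe. Sall1 was at 1.49, Fgf4 had 2046, 2201 and 579 and Glis1 was at -0.96. Genes that mark the mesenchymal-to-epithelial change were mixed. The simple epithelial keratins Krt8 and Krt18 had 824, 509.7 and 1777 and 566, 464 and 1990.3, while Krt19 was at -0.97. The mesenchymal cadherin Cdh2 was at -0.83 and the mesenchymal factors Prrx1 and Prrx2 at -0.32 and -0.58. Foxc1 was at 1.18.

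Markers of other cell types were read beside these. Of Schwann and neural crest genes, 5 of 9 were at least 2-fold higher and 1 lower, beside 2.67% and 4.21% of all counted genes. Ngfr, the low-affinity neurotrophin receptor, had 1027, 1982 and 5356, with an SD of its ratio of 0.0477 over 10 spots. S100b had 339.8, 749.9 and 3241, Gfra2 385, 325 and 2262, and Mbp was at -1.13. Of cartilage and bone genes, 4 of 12 were at least 2-fold higher and 1, Comp at -1.53, lower, against the same shares. A further 18 of the 30 on the array were not counted. The higher ones include the collagens Col2a1 and Col10a1, and Tnfsf11, which encodes RANKL, was at 1.12. Of the higher genes of both lists, S100b, Gfra2 and Col10a1 were among those counted through old p16-/- alone. The tendon factor Scx was at 0.25. The alpha-globin genes Hba-a1 (24.8, 48.8 and 2241) and Hba-a2 (201, 257 and 8594) were bright on old p16-/- only, whereas the embryonic Hbb-y was at -0.09. Lpl, the lipase of adipocytes and macrophages, had 757, 406 and 2807, with 1.74 by a second probe. The share of any of these cell types in the values was not tested.

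Genes next to each other on a chromosome sometimes differed together. There were 14 places where 3 or more neighbouring counted genes were each at least 2-fold apart, 49 genes in all. The genes of a place did not always differ in the same direction. Srprb at 1.86 shared a place with Trf at -2.70, and Ddc at 1.54 with Grb10 at -1.40. Whether there were more such places than unlinked genes would give was not tested. On chromosome 12, Ifi27l2a, Ifi27 (-1.54) and Ifi27l2b were lower, and the 5 Serpina3 genes that follow were higher. On chromosome 16, Parp14 (-1.86), Dtx3l (-1.02) and Parp9 (-1.50), a group of interferon-induced genes, were lower together. Oas2, Oas1f (-2.29) and Oas1a did the same on chromosome 5. On chromosome 1, Ifi211 and Ifi202b, neighbours among counted genes, lay at opposite extremes. The share of genes at least 2-fold apart ranged from 4.41% on chromosome X to 9.27% on chromosome 9.

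The largest differences outside the groups above were of mixed kinds. Iapp, the amylin precursor of pancreatic islets, had 42.3, 89.7 and 6320.0. Cd200, an immune inhibitory ligand, had 136, 209 and 4165, Stac 255, 335 and 5017 and the chitinase-like Chil1 23.1, 109 and 2374. H60b, a ligand of the NKG2D receptor, was not well above background on either WT array and had 12.5, 26.7 and 4244. Trim12a went the other way, with 5781, 6198 and 12.5, lower by at least 132-fold (a bound of -3.38 on the log2 scale by a second probe). Acyp2 had 2270.4, 2058 and 45.1 and Gcnt1 1258, 1542 and 36.4 (a bound of -1.97 by a second probe), both not well above background on old p16-/-. Aph1b had 1585, 1665 and 83.7, but its second probe gave -0.49. Trim12a, Acyp2, Gcnt1 and Aph1b were each nearly alike on both WT arrays.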

How the data were processed

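RNA of tail-tip fibroblasts was hybridised to 1-colour Agilent arrays, 1 array each for young WT, old WT and old p16-/-. The deposited values are linear spot intensities from Agilent Feature Extraction 11.5.1.1 (Cy3, array design on mm9), background-subtracted but not normalized between arrays, per the file headers. All 3 arrays shared 1 slide and 1 scan. Of 43020 spots, 57.4% to 61.6% were well above background per array and none was saturated.

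From these intensities, log2 processed signals were computed with pandas 2.3.3 and numpy 2.4.6 under Python 3.11.15. Control spots and spots marked as outliers (246, 246 and 267) were left out, spots of a probe were averaged, and arrays were scaled by subtracting their 75th percentiles. Accessions without version named 27508 of 39429 probes through the RefSeq table of GRCm38.p6. A gene is its brightest probe. Ratios with 1 old array not well above background are bounds, for which the dim side was set to its measured level or to that array's dimmest above-background level, whichever was higher. This applied to 12 counted genes (6 higher, 6 lower). The precision is limited by the number of arrays, and no test was run.

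The comparison and the 70 gene lists (2006 of 2034 entries matched) were chosen with earlier results of these data known. Named are the 15 highest and 15 lowest ratios, the 8 largest bounds per direction, Cdkn2a, Cdkn2b, the 4 factors, the 8 nearest genes on each side of Cdkn2a and, per list, up to 5 counted members per direction at least 2-fold apart and up to 4 within it, with lists of 12 or fewer given whole. From this set the text takes a part. Genes whose promoters, neighbours or low ratios are described beyond it (such as Bst2, Ccnb2, Vcl, Cnn2, Lox, Fbn1, Trim34a and Parp14) were chosen after their values were seen, and so were the promoter motifs.

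Alternatives were normexp (limma 3.58.1, R 4.3.3, offset 50) on the median in place of the mean spot signal, median and quantile scaling, limits of 500 and 2000, mean or median over probes, background calls on both arrays or unused, outlier spots kept, and the deposited value table. Normexp on the median signal was chosen after seeing the data.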

Additional observations from a re-analysis of the deposited data

How the results depend on the processing

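Over 11 alternatives, genes at least 2-fold higher on old p16-/- numbered 168 to 351 and those lower 275 to 494, within 1.5 times of 236 and 372. Scaling to the median gave 258 higher and 343 lower, and quantile normalization 228 and 387. The median of the interferon effector lists, -2.37, was -2.13 after normexp, -2.25 and -1.99 at signal limits of 500 and 2000, and -2.13 with the mean over probes; the cause was not tested. That of the mitosis genes ran from 0.55 to 0.62 and that of the contractile genes from -0.84 to -0.74. Of 289 genes named, none that was at least 2-fold apart changed sign in these alternatives, and 16 changed side of 2-fold, among them Myc (-0.98 after normexp and median scaling), Dtx3l (-0.90 after normexp), Csf1 (-0.88 and -0.70 with the mean and median over probes) and Plagl1 (0.81 and 0.45). Ratios of more genes than these 16 shifted in size, most often under normexp and quantile normalization. List medians near 0, such as those of the kinase inhibitors and fibrillar collagens, changed sign between settings. Dim probes limit the bounds. No paired analysis was possible because each group has 1 array.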
